A study of Mus musculus with 19 samples.

Results

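The lymphotoxin and tumour necrosis factor (TNF) genes described here are 10 genes taken by their symbols: the ligands Lta, Ltb, Tnf, Tnfsf11 and Tnfsf8 and the receptors Ltbr, Tnfrsf1a, Tnfrsf1b, Tnfrsf18 and Tnfrsf4. All 10 were found among the 18607 genes of the deposited table, and the rule that takes them uses no measured value. RNA was sequenced from 19 libraries of sorted bone marrow progenitors of the C57BL/6 strain, at 3 stages on the path towards innate lymphoid cells (ILC), the tissue lymphocytes without rearranged antigen receptors. The ALP group (7 libraries) was lineage-low and Ly-6D-low and carried Kit, IL-7Ra and high Flt3. The EILP group (7 libraries) was also low for lineage markers, Ly-6D and CD122, and carried Kit, high GFP, low Thy-1.2 and intermediate or low IL-7Ra. The ILCp group (5 libraries) shared the lineage, Ly-6D, CD122, Kit and GFP gates of EILP and carried Thy-1.2, high IL-7Ra and a4b7 integrin. All mice carried 1 fluorescent reporter allele, Tcf7EGFP/+ in 17 libraries and Plzf-cre-GFP/+ in ILCp 4 and ILCp 5, so no group lacked a reporter. GFP therefore marks Tcf7 expression in EILP and ILCp 1 to 3 and Plzf expression in ILCp 4 and 5. No source used here gives the animals' ages or says whether the libraries of 1 group are different animals or pools. The p-values therefore cover only library-to-library spread, part of which can be technical.

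TNF family ligands are mostly trimeric proteins of the cell surface, some of them shed, that bind receptors of the TNF receptor family on other cells. The receptors recruit TRAF adaptors or death-domain proteins and activate NF-kappaB, through a fast canonical route or, below the lymphotoxin beta receptor and RANK, a slower route that runs through the kinase NIK. Lymphoid tissue inducer (LTi) cells, a branch of the innate lymphoid family, are known for making lymphotoxin and RANK ligand, which act on stromal cells to build lymph nodes and Peyer's patches.

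The values are log2 CPM (read counts relative to library size) as the authors deposited them. From the values, they had been cleared of differences between the 5 batches named in the labels, which makes the SDs below too small, and read depth per library is unknown. With no counts, a zero cannot be read directly. In each batch, however, libraries tie at one lowest value of a gene, called the zero level here, which averaged −4.96 log2 CPM over batches. Batch correction moves that level by gene and batch, so a library above zero in one batch can lie below a library at zero in another. A fold change against libraries at that level depends on it, and none is given where a whole group lies there. EILP 3 and EILP 4 make up batch 3 alone and bear on the errors of the fits but not on the fold changes. The labels were checked on sorting genes: Tcf7 ranged from −2.66 to 3.59 log2 CPM in ALP, from 8.47 to 13.07 in EILP and from 8.95 to 9.56 in ILCp, and Il7r from 9.44 to 10.35 in ILCp, above every EILP and ALP library. Some libraries stood apart in markers of other cells. EILP 2 had a summed level of 42160 CPM over 10 myeloid marker genes, against 1637 to 6757 CPM in the other EILP libraries, 555 to 6341 in ALP and 92.8 to 1722 in ILCp. EILP 5 had a summed bone stroma level of 1591 CPM, against 174 to 814 in the other EILP libraries, 126 to 198 in ALP and 150 to 173 in ILCp. In ALP and ILCp most of that sum was the single gene Pecam1 (6.96 to 7.56 and 7.15 to 7.43 log2 CPM). ILCp 2 had an erythroid and megakaryocyte sum of 819 CPM, against 45.8 to 123 in the other ILCp libraries. Calls of the 10 genes described here that change without one of these 3 libraries are given both ways. Calls of other genes were not checked in this way.

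Of the 10 genes, 3 form a cluster on chromosome 17 in the mouse build GRCm38. Ltb lies on the forward strand (35194439 to 35196320), followed after 3.061 kb by Tnf (35199381 to 35202007) and after a further 1.158 kb by Lta (35203165 to 35205351), both on the reverse strand. Tnfrsf4 (4:156013843 to 156016612) and Tnfrsf18 (4:156026164 to 156028895) are adjacent on the forward strand of chromosome 4, 9.552 kb apart. Ltbr (6:125306571 to 125313885, reverse) and Tnfrsf1a (6:125349362 to 125362484, forward) flank the sodium channel gene Scnn1a. Tnfrsf1b (4:145213463 to 145246870), Tnfsf8 (4:63831308 to 63861347) and Tnfsf11 (14:78277445 to 78308043) each lie apart from other members, all on the reverse strand.

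The promoters of the 4 genes that rose from EILP to ILCp are printed 5′ to 3′ on the strand of the gene. They run from 250 bases before to 50 bases after the start site of RefSeq (GRCm38.p6). The 4 genes were taken because they passed the threshold in that comparison, and a shared regulation was not tested. All 10 members matched a RefSeq promoter. The windows are chr17:35194257-35194556 (forward) for Ltb, chr17:35205302-35205601 (reverse) for Lta, chr4:156026072-156026371 (forward) for Tnfrsf18 and chr6:125349473-125349772 (forward) for Tnfrsf1a. Capitals mark the 1 match found to the motifs searched.
Ltb: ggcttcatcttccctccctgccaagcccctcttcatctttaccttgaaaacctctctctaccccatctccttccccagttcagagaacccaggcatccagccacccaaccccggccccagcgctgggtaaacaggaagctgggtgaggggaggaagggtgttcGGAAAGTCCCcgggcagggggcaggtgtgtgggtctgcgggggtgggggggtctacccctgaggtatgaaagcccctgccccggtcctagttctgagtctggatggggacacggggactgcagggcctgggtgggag
Lta: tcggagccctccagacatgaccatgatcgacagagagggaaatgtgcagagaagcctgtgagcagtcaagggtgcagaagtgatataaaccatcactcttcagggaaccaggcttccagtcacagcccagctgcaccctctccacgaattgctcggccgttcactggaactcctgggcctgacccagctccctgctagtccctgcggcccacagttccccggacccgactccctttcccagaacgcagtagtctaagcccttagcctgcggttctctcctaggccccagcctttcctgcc
Tnfrsf18: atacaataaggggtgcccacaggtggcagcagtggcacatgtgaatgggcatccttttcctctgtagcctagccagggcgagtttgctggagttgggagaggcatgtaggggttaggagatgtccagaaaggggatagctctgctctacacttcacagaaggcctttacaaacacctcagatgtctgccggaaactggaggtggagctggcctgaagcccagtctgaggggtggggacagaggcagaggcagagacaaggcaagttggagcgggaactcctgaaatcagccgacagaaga
Tnfrsf1a: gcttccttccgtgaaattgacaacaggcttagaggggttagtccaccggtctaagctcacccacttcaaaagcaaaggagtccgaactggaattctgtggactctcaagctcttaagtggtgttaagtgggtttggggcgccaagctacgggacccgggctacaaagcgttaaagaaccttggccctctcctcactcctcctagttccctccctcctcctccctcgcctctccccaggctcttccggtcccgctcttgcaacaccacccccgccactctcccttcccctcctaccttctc

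Each motif given here was searched on both strands. The motif of TCF factors was taken as CTTTGAA or with T as its last base. The motif of GATA factors, zinc finger proteins that act in many blood lineages, was taken as AGATAA. The third motif was that of NF-kappaB, known as kappaB. Among the 10 promoters the only match to these 3 was GGAAAGTCCC in Ltb, a kappaB match on the opposite strand, whose first printed base lies 87 bases before the start site. It overlaps none of the others. Of 32841 RefSeq promoters of the same length, 4.51% hold a kappaB match, 8.65% a TCF match and 11.2% a GATA match. A match is a description of the letters in this window only.

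From EILP to ILCp, 4 of the 10 genes rose: the lymphotoxin ligands Lta and Ltb and the receptors Tnfrsf18 and Tnfrsf1a (limma, Benjamini-Hochberg adjusted p below 0.05 over all genes). None fell. Over all 18607 genes 1.76% were higher and 1.46% lower in this comparison. From ALP to ILCp, Lta and Tnfrsf18 rose and none fell, against 3.86% of all genes higher and 4.39% lower. From ALP to EILP none of the 10 passed the threshold (limma), and 1 had an unadjusted p below 0.05. In that comparison 2.25% of all genes were higher and 2.79% lower. The comparisons share libraries, so their counts are not independent of each other. The median log2 fold change of the 10 genes was −0.28 for EILP versus ALP, 0.86 for ILCp versus EILP and 0.56 for ILCp versus ALP, against medians over all genes of 0.00, −0.08 and −0.03. Tnfsf8 and Tnfrsf4, which lie at the zero level in all of ILCp, sit on the negative side of the ILCp medians, and any other negative value for them would leave those medians as they are. With each library centred on its median, those all-gene medians became 0.22, −0.17 and 0.09. The numbers of genes called higher and lower were 419 and 520 as deposited and 804 and 395 after centring for EILP versus ALP, 327 and 271 against 279 and 390 for ILCp versus EILP, and 718 and 816 against 813 and 584 for ILCp versus ALP.

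**Figure D1:**
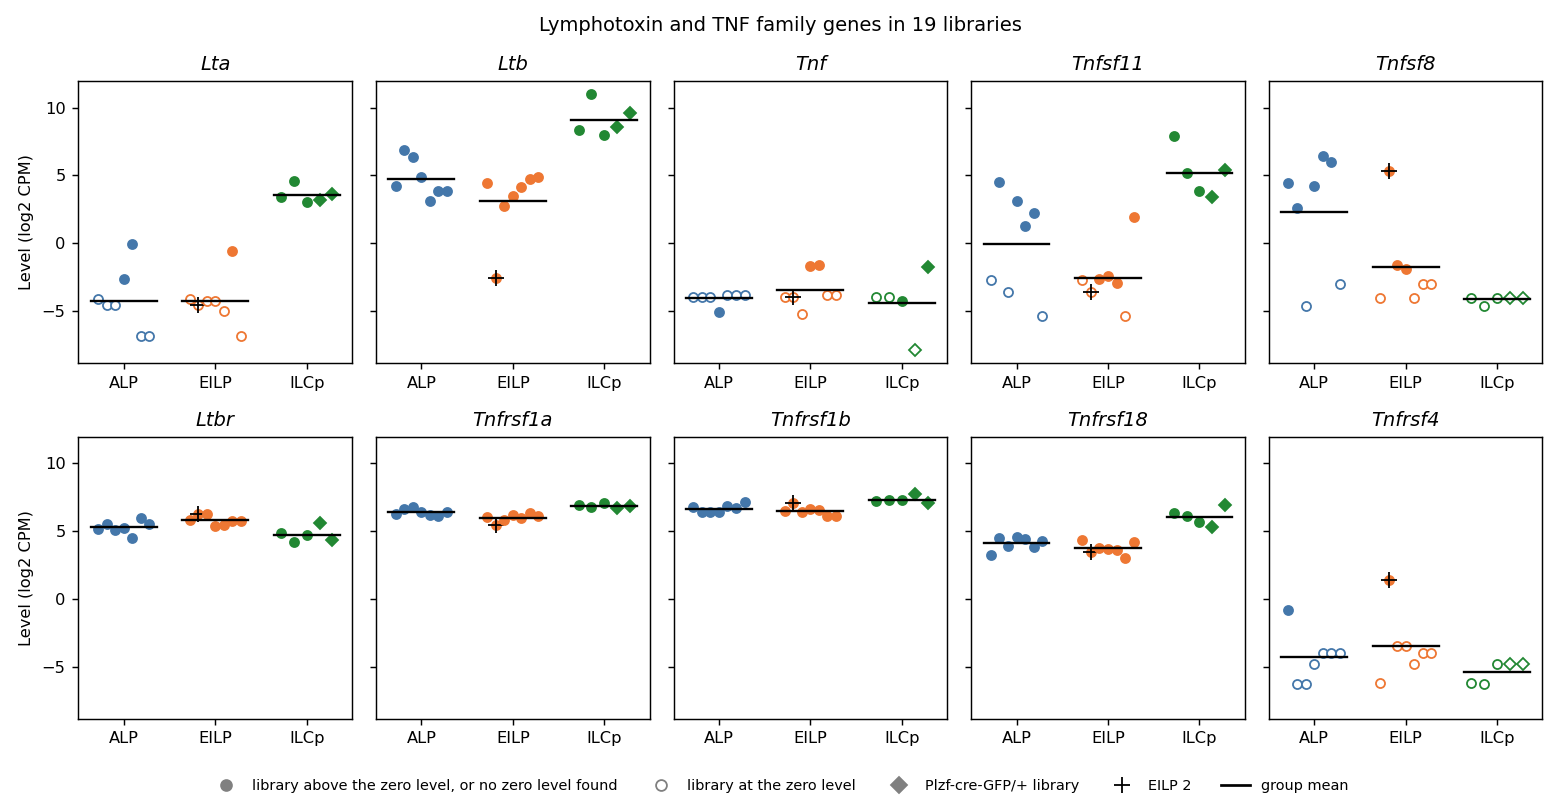
Level of each of the 10 genes (log2 CPM, 1 point per library) in ALP, EILP and ILCp, with the group mean as a line. Open points lie at the zero level of their batch, diamonds are Plzf-cre-GFP/+ libraries and the cross marks EILP 2. Lta and Ltb in ILCp lie above every other library, whereas Tnf and Tnfrsf4 are at or near the zero level in most libraries.

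Lta encodes lymphotoxin alpha, which is secreted as a homotrimer or held at the membrane by lymphotoxin beta. Its level in the 5 ILCp libraries was 3.39, 4.59, 3.03, 3.21 and 3.62 log2 CPM. In ALP the lowest, median and highest values were −6.85, −4.57 and −0.07, and in EILP −6.85, −4.22 and −0.53. Every ILCp library was thus above every earlier library, and 5 of 7 ALP and 6 of 7 EILP libraries lay at the zero level, the exceptions being ALP 4, ALP 5 and EILP 6. The group means were −4.24 ± 2.38 for ALP (SD, n = 7), −4.22 ± 1.88 for EILP (n = 7) and 3.57 ± 0.61 for ILCp (n = 5). On the log2 scale ILCp was higher than EILP by 7.79 ± 1.48 (SE, limma adjusted p = 0.00995) and higher than ALP by 7.81 ± 1.43 (adjusted p = 0.00247), differences that rest on the zero level. Within batches 1, 2 and 4, the only ones with ILCp, Lta was higher in ILCp than in EILP by 7.53, 9.16 and 8.29 and than in ALP by 7.53, 9.16 and 5.89. The call against EILP was lost without EILP 5 (7.33, adjusted p = 0.0666), without the Plzf-cre-GFP libraries (7.89, adjusted p = 0.0508), with only the groups compared (8.33, adjusted p = 0.0502) and without batch 4 (8.11, adjusted p = 0.142). Without batch 4 the call against ALP was lost too (8.60, adjusted p = 0.0583). In bulk libraries such as these, fewer cells with a transcript and less RNA per cell cannot be told apart.

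Ltb encodes lymphotoxin beta, the membrane partner that lets the heterotrimer bind the lymphotoxin beta receptor. Its ILCp values were 8.32, 11.02, 7.98, 8.55 and 9.58 log2 CPM. Its zero level is not known. In the earlier stages its values were 3.11 (lowest), 4.20 (median) and 6.86 (highest) in ALP and −2.59, 4.14 and 4.89 in EILP. All 5 ILCp libraries exceeded all 14 others, ILCp 2 was the highest, and EILP 2 lay far below the other EILP libraries, of which the lowest was 2.74. The means were 4.73 ± 1.40 for ALP (SD, n = 7), 3.11 ± 2.62 for EILP (n = 7) and 9.09 ± 1.23 for ILCp (n = 5). The rise from EILP to ILCp (5.98 ± 1.37, SE, limma adjusted p = 0.0270) became 3.87 without EILP 2 (adjusted p = 0.000219). The difference from ALP (4.36 ± 1.33, adjusted p = 0.0551) just missed the threshold and passed it without EILP 2 (4.40, adjusted p = 3.73e-06) or without ALP 2 (4.84, adjusted p = 0.0485). Within batches 1, 2 and 4, ILCp lay above ALP by 4.12, 4.40 and 3.84 and above EILP by 3.91, 13.61 and 4.57, the value in batch 2 being against EILP 2. The call against EILP was lost when 1 of ALP 4, EILP 3, EILP 4, EILP 5, ILCp 1, ILCp 2 or ILCp 5 was left out (adjusted p 0.0566, 0.0575, 0.0578, 0.0800, 0.0633, 0.140 and 0.0686, log2 differences 6.01, 5.98, 5.98, 6.58, 6.38, 5.00 and 5.87). It was lost too with only the groups compared (6.96, adjusted p = 0.108), with only batches that hold both (7.08, adjusted p = 0.105), without the Plzf-cre-GFP libraries (5.99, adjusted p = 0.122), without the variance trend (5.98, adjusted p = 0.0607) and without batch 4 (6.93, adjusted p = 0.223). The difference from ALP passed after median centring (4.48, adjusted p = 0.0481) and quantile normalization (4.40, adjusted p = 0.0488), with only the groups compared (4.11, adjusted p = 0.000488), without a batch term (4.36, adjusted p = 0.00466) and with genes of low mean level left out (4.36, adjusted p = 0.0346).

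Because mature T and B cells also make lymphotoxin, markers of these cells were read in the same libraries. The summed level of 8 T cell markers was 8.30 to 367 CPM in ALP, 16.0 to 64.3 in EILP and 19.6 to 543 in ILCp. ILCp 2 was highest in this sum, in Ltb and in Lta. Its sum came mainly from Cd247 (8.75 log2 CPM) and Cd6 (6.09), and of the defining genes Cd3g stood at 4.63, the highest of all 19 libraries, Cd3d at 1.45, Cd3e at 0.19 and Trac at −0.42. Among ILCp libraries, ILCp 4 had the lowest sum. Its Cd3g and Cd3e stood at −4.10 and −3.24, but Cd3d at −0.64, Trac at −0.40, Cd247 at 3.53 and Cd6 at 2.17. Lta and Ltb were at 3.21 and 8.55 in this library. Cd3d, Cd3e and Cd3g were at the zero level in all 7 ALP libraries. From ALP to ILCp, Cd3d and Cd3g rose (limma adjusted p = 0.0209 and 0.0370), to means of 0.62 and 1.99 log2 CPM. From EILP to ILCp neither passed. For 7 B cell markers the sum was lower in ILCp (27.1 to 62.8 CPM) than in ALP (82.7 to 278). Most of the ILCp sum was the single gene Cd79b (4.75 to 5.80 log2 CPM). Pax5 and Ebf1 were at the zero level in all 5 ILCp libraries, and Pax5 in all EILP libraries too. Vpreb3, however, reached 2.57 in ILCp 2 and 1.90 in ILCp 4. For 7 NK cell markers the sum was 0.625 to 19.4 CPM in ALP, 3.42 to 95.3 in EILP and 13.4 to 79.3 in ILCp. The part of T, B and NK cell transcripts in the lymphotoxin result was not tested.

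Tnf, the inflammatory cytokine whose gene lies between Ltb and Lta, was barely seen at any stage. It was above the zero level in 1 of 7 ALP libraries (ALP 4), 2 of 7 EILP libraries (EILP 4 and 5) and 2 of 5 ILCp libraries (ILCp 3 and 5), and the highest value in any library was −1.59 log2 CPM in EILP 5. The 3 groups overlapped, and ILCp differed from EILP by −0.95 (limma 95% interval −3.24 to 1.34, adjusted p = 0.723) and from ALP by −0.32 (−2.53 to 1.88, adjusted p = 0.911). The 2 genes on either side of it thus rose from EILP to ILCp, and Tnf did not pass the threshold.

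Tnfsf11 encodes RANK ligand, which drives osteoclasts and, from LTi cells, lymph node formation. The ILCp values were 7.93, 5.18, 3.86, 3.41 and 5.42 log2 CPM. ALP values ran from −5.37 through a median of 1.27 to 4.49, and EILP values from −5.37 through −2.69 to 1.92. Every ILCp library was above every EILP library, and ALP was spread over both ranges, with 3 of 7 libraries at the zero level. The difference between ILCp and EILP was 7.70 ± 2.10 (SE, limma adjusted p = 0.0590) and that between ILCp and ALP 5.24 ± 2.02 (adjusted p = 0.139), so neither passed. Within batches 1, 2 and 4, ILCp minus EILP was 10.63, 8.78 and 7.18, and ILCp minus ALP 10.63, 4.74 and 1.10. The first comparison passed when ALP 2 (adjusted p = 0.0474), ALP 7 (adjusted p = 0.0297) or EILP 7 (adjusted p = 0.0388) was left out, with differences of 7.88, 8.24 and 8.46. It also passed after quantile normalization (7.78, adjusted p = 0.0465) and without a batch term (7.70, adjusted p = 0.00208), where that against ALP passed too (5.24, adjusted p = 0.0209).

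Tnfsf8 encodes CD30 ligand, a costimulatory ligand of lymphocytes, and had its highest mean in ALP. In ALP it reached 4.46, 2.58, 4.22, 6.40 and 5.97 log2 CPM in libraries 1, 2, 4, 5 and 6 and lay at the zero level in libraries 3 and 7. In EILP it was above zero in 3 of 7 libraries: EILP 3 and 4 at −1.59 and −1.88, and EILP 2 at 5.34. It was at the zero level in 5 of 5 ILCp libraries. ALP and EILP overlapped, and the difference of −4.03 ± 2.08 (SE, limma adjusted p = 0.340) did not pass. Within batches it was −8.48, −8.24 and −6.11 in batches 1, 4 and 5 and 6.35 in batch 2, which holds EILP 2. Without EILP 2 the difference was −6.70 (adjusted p = 0.0517), and without EILP 2 and ALP 7 together, a choice made after seeing the data, −8.19 (adjusted p = 0.00376). For ILCp against ALP, adjusted p was 0.121 and became 0.0434 without EILP 2, 0.0295 without ALP 3 and 0.0164 without a batch term. EILP 2 is also the library with the highest myeloid marker sum, and the part of other cells in its Tnfsf8 level was not tested.

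Among the receptors, Ltbr encodes the lymphotoxin beta receptor, which is typical of stromal and myeloid cells. Its levels were 4.45 (lowest), 5.20 (median) and 5.94 (highest) log2 CPM in ALP, 5.37, 5.76 and 6.29 in EILP, and 4.82, 4.19, 4.69, 5.56 and 4.32 in the 5 ILCp libraries. Thus 4 of 5 ILCp libraries lay below all EILP libraries and ILCp 4 lay among them. The means were 5.26 ± 0.47, 5.81 ± 0.36 and 4.72 ± 0.54 (SD, n = 7, 7 and 5). The difference between ILCp and EILP was −1.09 ± 0.36 (SE, limma adjusted p = 0.126), and −1.02, −2.10 and −0.59 within batches 1, 2 and 4. EILP and ALP differed by 0.55 (95% interval −0.10 to 1.20, adjusted p = 0.389) and ILCp and ALP by −0.54 (−1.29 to 0.21, adjusted p = 0.422). Without a batch term the difference between ILCp and EILP passed (−1.09, adjusted p = 0.00766). The summed stromal and myeloid markers had their highest medians in EILP too, although several single genes of these lists did not peak there. The collagen gene Col1a1 averaged −4.51, 5.23 and −3.06 log2 CPM in ALP, EILP and ILCp. It rose from the zero level of all ALP libraries to EILP (limma adjusted p = 0.00176) and fell by 8.29 from EILP to ILCp (adjusted p = 0.0300). Mpo and Prtn3, granule genes of myeloid progenitors, fell from EILP to ILCp (−3.33 and −3.20, limma adjusted p = 0.0395 and 0.0231). Mpo and Prtn3 were highest in EILP 2 and Col1a1 in EILP 5, and these calls were not checked without those libraries. Other myeloid markers had their highest means in ALP. In ALP, EILP and ILCp, Csf1r averaged 7.20, 4.52 and 0.74 log2 CPM, Lyz2 8.40, 6.04 and 4.30, and S100a9 3.08, 1.61 and 0.73. None of these passed from ALP to EILP or from EILP to ILCp (limma). From ALP to ILCp, Csf1r passed (−6.46, limma adjusted p = 0.0144), and Lyz2 and S100a9 did not. Of the stroma markers, Cxcl12 had its lowest mean in EILP and Cdh5 lay at the zero level in all EILP libraries. The summed bone stroma level had medians of 174 CPM in ALP, 329 in EILP and 155 in ILCp, and the myeloid sum 2729, 6245 and 429. In ALP and ILCp most of the stroma sum was Pecam1, which had similar means in ALP, EILP and ILCp (7.37, 7.43 and 7.27 log2 CPM). The part of such cells in the Ltbr levels was not tested.

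Tnfrsf1a encodes TNF receptor 1, the widely expressed death-domain receptor of TNF and of the lymphotoxin alpha homotrimer. It was measured with little scatter, at 6.94, 6.76, 7.08, 6.68 and 6.82 log2 CPM in ILCp, 5.45 (lowest), 6.01 (median) and 6.30 (highest) in EILP, and 6.12, 6.38 and 6.78 in ALP. All ILCp libraries exceeded all EILP libraries, and ILCp and ALP overlapped because ALP 3 reached 6.78. The means were 6.39 ± 0.24 for ALP (SD, n = 7), 5.97 ± 0.28 for EILP (n = 7) and 6.86 ± 0.16 for ILCp (n = 5). ILCp was 1.85-fold higher than EILP (0.89 ± 0.21 on the log2 scale, SE, limma adjusted p = 0.0349), with 0.94, 1.31 and 0.88 within batches 1, 2 and 4. Without EILP 2 the difference was 0.69 and did not pass (adjusted p = 0.0804). It also fell short when 1 of ALP 4, EILP 1, EILP 5, ILCp 1 or ILCp 2 was left out (0.88, 0.90, 0.89, 0.84 and 0.93, with adjusted p 0.0522, 0.0607, 0.105, 0.0858 and 0.0702), after median centring (0.80, adjusted p = 0.0595), without the Plzf-cre-GFP libraries (0.96, adjusted p = 0.0709), without the variance trend (0.89, adjusted p = 0.0877), without batch 4 (0.88, adjusted p = 0.222) and when the fold change had to reach 1 on the log2 scale. ILCp minus ALP was 0.47 ± 0.21 (adjusted p = 0.205) and EILP minus ALP −0.42 ± 0.18 (adjusted p = 0.239), and both passed without a batch term (adjusted p = 0.0335 and 0.0492).

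Tnfrsf1b encodes TNF receptor 2, which lacks a death domain and is found mainly on lymphocytes and other blood cells. ILCp values were 7.21, 7.26, 7.29, 7.74 and 7.07 log2 CPM, against 6.37 (lowest), 6.73 (median) and 7.11 (highest) in ALP and 6.12, 6.50 and 7.10 in EILP. The groups just overlapped, since ILCp 5 lay below ALP 7 and EILP 2. The difference was 0.83 ± 0.24 against EILP (SE, limma adjusted p = 0.0714) and 0.66 ± 0.23 against ALP (adjusted p = 0.0978). Within batches 1, 2 and 4 it was 0.70, 0.16 and 0.81 against EILP and 0.46, 0.89 and 0.94 against ALP. Without EILP 2 both passed, at 1.06 (adjusted p = 0.0194) and 0.65 (adjusted p = 0.0432), as they did without a batch term (adjusted p = 0.00259 and 0.00970). The first passed with genes of low mean level left out (adjusted p = 0.0436) and the second with only the groups compared (0.80, adjusted p = 0.0400). EILP and ALP differed by −0.17 (95% interval −0.60 to 0.25, adjusted p = 0.696).

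Tnfrsf18 encodes GITR, a costimulatory receptor known from regulatory T cells and ILC progenitors. Its level in ILCp was 6.31, 6.12, 5.64, 5.28 and 6.90 log2 CPM. In ALP it was 3.20 (lowest), 4.27 (median) and 4.54 (highest), and in EILP 3.03, 3.65 and 4.34. No ILCp library overlapped either earlier stage, and ALP and EILP covered much the same range. The means were 4.09 ± 0.48 for ALP (SD, n = 7), 3.71 ± 0.44 for EILP (n = 7) and 6.05 ± 0.63 for ILCp (n = 5). ILCp was 5.05-fold higher than EILP (2.34 ± 0.43 on the log2 scale, SE, limma adjusted p = 0.00785) and 3.88-fold higher than ALP (1.96 ± 0.41, adjusted p = 0.00697). Within batches 1, 2 and 4 the difference was 1.96, 2.69 and 2.35 against EILP and 3.11, 1.92 and 1.39 against ALP. Both calls were kept with any 1 library left out, but the call against EILP was lost with only the groups compared (2.34, adjusted p = 0.0656) and with only the batches that hold both (2.26, adjusted p = 0.0760). EILP and ALP differed by −0.38 (95% interval −1.15 to 0.39, adjusted p = 0.628). The antisense gene Gm16008 spans all 2732 bases of Tnfrsf18, and the library kit does not mark strand, so reads of the pair cannot be told apart. The table lists Gm16008 at −4.76, −3.81 and −1.51 in ALP, EILP and ILCp.

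Tnfrsf4 encodes OX40, a costimulatory receptor of activated T cells, and lies next to Tnfrsf18. It was above the zero level in 2 of 19 libraries, ALP 1 (−0.84 log2 CPM) and EILP 2 (1.40), and at that level in 5 of 5 ILCp libraries. The 2 neighbouring receptor genes therefore differed in ILCp, where GITR was read in all 5 libraries and OX40 in none.

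All 5 ILCp libraries exceeded all 7 EILP libraries for 5 of the 10 genes (Lta, Ltb, Tnfsf11, Tnfrsf1a and Tnfrsf18), against 3.35% of all genes. They exceeded all 7 ALP libraries for 3 of the 10 (Lta, Ltb and Tnfrsf18), against 4.01% of all genes. For each of these the lowest ILCp library lay above the highest library of the earlier stage.

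**Figure D2:**
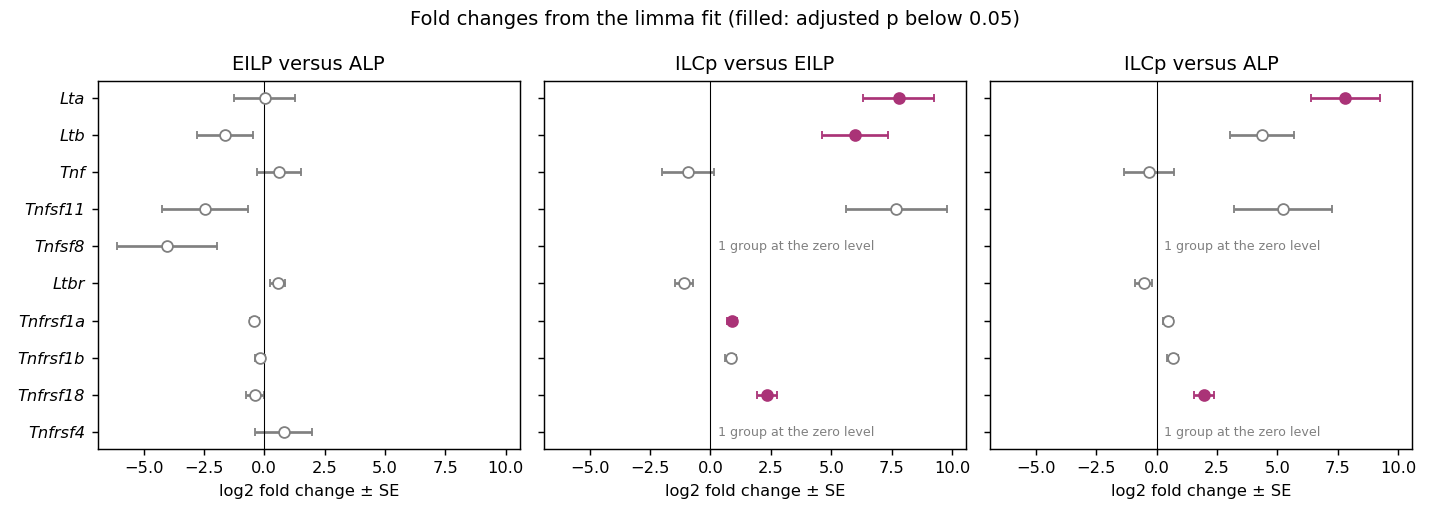
Log2 fold change of each gene with its standard error in the 3 comparisons (limma). Filled points passed an adjusted p of 0.05: Lta, Ltb, Tnfrsf1a and Tnfrsf18 for ILCp versus EILP, Lta and Tnfrsf18 for ILCp versus ALP, and none for EILP versus ALP. No point is drawn where ILCp lies at the zero level.

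**Figure D3:**
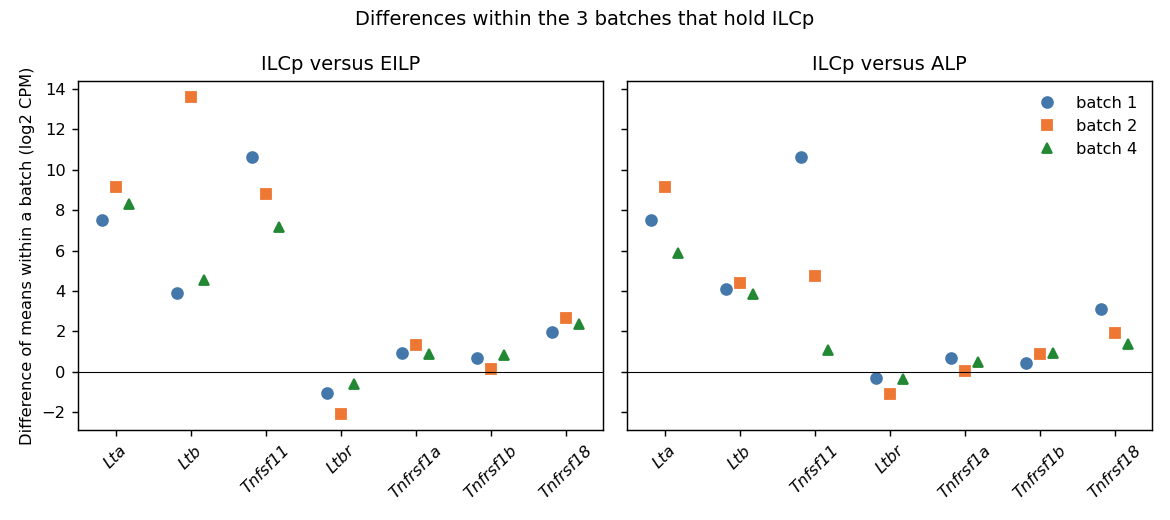
Difference between ILCp and the earlier stage within each batch that holds ILCp (log2 CPM, batches 1, 2 and 4 with 1, 1 and 3 ILCp libraries). Lta, Ltb, Tnfsf11, Tnfrsf1a, Tnfrsf1b and Tnfrsf18 are above 0 and Ltbr is below 0 in every batch of both panels. The Ltb value of batch 2 against EILP, 13.61, rests on EILP 2.

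To set levels of different genes side by side, they were divided by exon length. In ILCp the level per kilobase, on the log2 CPM scale, was 8.49 for Ltb, 5.48 for Tnfrsf1a, 5.44 for Tnfrsf18, 5.38 for Tnfrsf1b, 4.00 for Tnfsf11, 3.48 for Ltbr and 3.10 for Lta. Ltb thus exceeded its partner Lta in ILCp by far more than the SD of either gene. In ALP the same scale gave 5.02 for Tnfrsf1a, 4.72 for Tnfrsf1b, 4.13 for Ltb, 4.02 for Ltbr, 3.48 for Tnfrsf18 and 0.36 for Tnfsf8. In EILP it gave 4.60 for Tnfrsf1a, 4.57 for Ltbr, 4.55 for Tnfrsf1b, 3.10 for Tnfrsf18 and 2.51 for Ltb. The 3 leading EILP genes, which are all receptors, differ by less than their SDs of 0.28 to 0.36.

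Most genes next to the members, other than members themselves, did not pass the threshold in any comparison. Lst1, which lies 6.00 kb before Ltb and is known from myeloid cells, fell by 2.94 on the log2 scale from EILP to ILCp (SE 0.75, limma adjusted p = 0.0440), from a mean of 4.28 to 1.35. Nfkbil1, beyond Lta, stayed between means of 3.40 and 3.54 and passed in no comparison. None of Sdf4, Vps13d, Scnn1a, Plekhg6, Akap11, Tnfsf15 and Tnc, the other neighbours in the table, passed in any comparison (limma). Of these, Scnn1a, Plekhg6, Tnfsf15 and Tnc were low at every stage, with group means from −5.26 to −2.01 log2 CPM. Without passing, ILCp exceeded EILP by 2.54 ± 1.29 for Vps13d (SE, limma adjusted p = 0.341) and by 0.48 ± 0.15 for Sdf4 (adjusted p = 0.0957). Over the 19 libraries, and among 9351 genes with a mean above 2 log2 CPM, the closest pattern to Ltb was that of Galnt12 (Pearson r = 0.94), followed by Ypel3 and Phip (0.93 and 0.93). For Tnfrsf18 the closest were Pkp3 (0.94), Saraf (0.93) and Slc9a9 (0.92). For Tnfrsf1a they were Vps9d1 (0.90), Ltb itself (0.89) and Ppp6r3 (0.88). These correlations describe 19 libraries that share 3 groups and 5 batches.

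ILCp came from 2 reporter strains. Only batch 4 holds both, with 1 Tcf7EGFP/+ library, ILCp 3, and the fit also uses ILCp of batches 1 and 2 set against the earlier stages there. None of the 10 genes passed the threshold between the 2 Plzf-cre-GFP/+ and 3 Tcf7EGFP/+ libraries (limma, 0 with an unadjusted p below 0.05), against 0.0752% of all genes in either direction. Over all batches, Lta averaged 3.42 and 3.67 log2 CPM in the 2 strains, Ltb 9.07 and 9.11 and Tnfrsf18 6.09 and 6.02. Within batch 4, Ltb was at 8.55 and 9.58 in the Plzf-cre-GFP/+ libraries and 7.98 in ILCp 3, Lta at 3.21 and 3.62 against 3.03, and Tnfrsf18 at 5.28 and 6.90 against 5.64. The standard errors of the fitted differences for Lta, Ltb and Tnfrsf18 were 2.25, 2.09 and 0.65 on the log2 scale.

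Of 18 TNF family ligands listed, 15 were in the table. From EILP to ILCp 2 rose, the members Lta and Ltb, and none fell, with a list median of −0.29. Over all genes 1.76% were higher and 1.46% lower. Of the 10 ligands that are not members 0 passed (limma, 1 with an unadjusted p below 0.05), with a median of −0.33. From ALP to ILCp 2 rose as well, Lta and Tnfsf14, against 3.86% of all genes higher and 4.39% lower, and the median was −0.07. From ALP to EILP 0 passed (limma, 1 with an unadjusted p below 0.05), and the median was 0.02. Tnfsf14 encodes LIGHT, a further ligand of the lymphotoxin beta receptor, and its means were 2.47 ± 0.73, 3.73 ± 0.74 and 4.57 ± 0.68 log2 CPM in ALP, EILP and ILCp (SD, n = 7, 7 and 5). ILCp exceeded ALP by 2.11 ± 0.58 (SE, limma adjusted p = 0.0328).

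Of 28 receptors listed, 24 were in the table. From ALP to EILP 1 rose and 1 fell, against 2.25% and 2.79% of all genes, with a median of −0.18. From EILP to ILCp 3 rose, the members Tnfrsf18 and Tnfrsf1a among them, and none fell, with a median of 0.13. The shares of all genes were 1.76% and 1.46%. Of the 19 receptors that are not members, 1 rose and none fell, with a median of −0.06. From ALP to ILCp 3 rose, Tnfrsf18 among them, and 2 fell, against 3.86% and 4.39% of all genes, with a median of 0.40. Tnfrsf9, which encodes the costimulatory receptor 4-1BB, rose at the first step, from −4.88 ± 1.03 in ALP to 3.86 ± 0.61 in EILP (difference 8.75 ± 0.73, limma adjusted p = 1.50e-06), and stood at 4.97 ± 1.06 in ILCp. Of the ALP libraries 4 lay at its zero level. Tnfrsf25, which encodes death receptor 3, the receptor of TL1A, was at the zero level in 7 of 7 ALP and 5 of 7 EILP libraries and at 3.69 ± 1.70 in ILCp, a rise of 6.50 ± 1.55 from EILP (adjusted p = 0.0324) and past the threshold against ALP too (adjusted p = 0.000903). Cd27 fell by 0.68 from ALP to EILP (SE 0.18, adjusted p = 0.0360) and Tnfrsf13c, the BAFF receptor of B cells, fell by 5.74 from ALP to ILCp (SE 1.17, adjusted p = 0.00556). The RANK gene Tnfrsf11a, whose protein binds the product of Tnfsf11, averaged −0.47, −3.35 and 2.48 in ALP, EILP and ILCp and passed in no comparison.

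**Figure D4:**
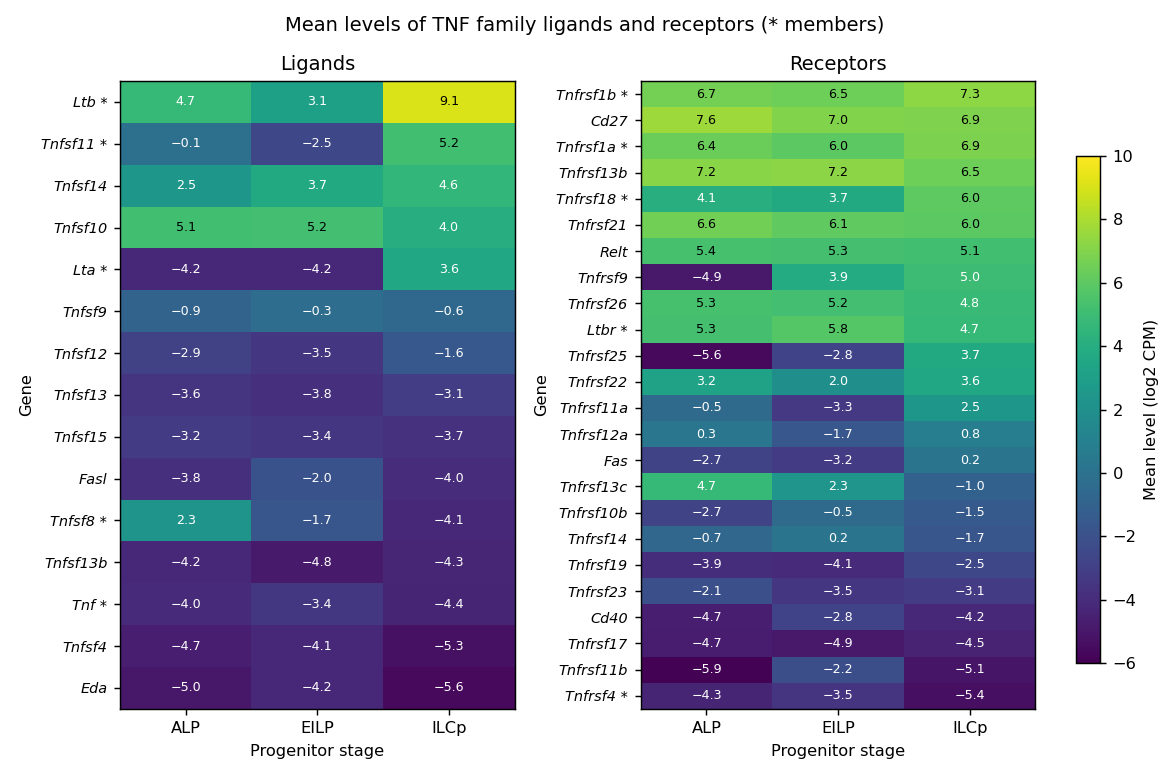
Mean level (log2 CPM, colour and printed value) of the 15 ligands and 24 receptors of the TNF family in the table, by stage, with the 10 members starred and genes ordered by their ILCp mean. Ltb has the highest ILCp mean of the ligands, 9.09, and Tnfrsf1b that of the receptors, 7.31.

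Downstream of the receptors act adaptors and enzymes, of which 30 of 31 listed were in the table. From ALP to EILP 1 of them rose and 1 fell, from EILP to ILCp 0 passed (limma, 2 with an unadjusted p below 0.05), and from ALP to ILCp 1 rose and 1 fell, with medians of 0.09, 0.15 and 0.13. For 30 genes these counts are near the shares of all genes given above. The caspase of the death receptors, Casp8, fell by 0.63 from ALP to EILP (SE 0.11, limma adjusted p = 0.00305) and by 0.81 from ALP to ILCp (SE 0.13, adjusted p = 0.000959). Xiap, a caspase inhibitor, rose by 1.06 ± 0.28 from ALP to EILP (adjusted p = 0.0380), and Tab2, a subunit of the TAK1 kinase complex, rose by 1.65 ± 0.41 from ALP to ILCp (adjusted p = 0.0183).

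Of the 10 NF-kappaB subunits and inhibitors, all in the table, 1 rose and 2 fell from ALP to EILP and 2 rose and 1 fell from EILP to ILCp, with medians of −0.09 and 0.38. Over all genes 2.25% were higher and 2.79% lower in the first of these comparisons, and 1.76% and 1.46% in the second. From ALP to ILCp 0 passed (limma, 1 with an unadjusted p below 0.05), and the median was 0.16. The same 3 genes made both earlier counts. Nfkb1, which encodes the p105 and p50 subunit, stood at 7.19 ± 0.29 in ALP, 9.07 ± 0.16 in EILP and 7.50 ± 0.45 in ILCp log2 CPM (SD), a rise of 1.88 ± 0.19 (SE, limma adjusted p = 1.53e-05) and a fall of 1.57 (SE 0.23, adjusted p = 0.00163). The inhibitor gene Nfkbia ran the other way, at 7.33 ± 0.18, 6.75 ± 0.14 and 7.41 ± 0.28 (adjusted p = 0.0309 and 0.0488). Nfkbiz, an inducible nuclear member of the inhibitor family, was at 1.66 ± 2.43, −4.09 ± 2.01 and 2.78 ± 0.71 (adjusted p = 0.0151 and 0.0241), and 2 EILP libraries lay at its zero level.

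Of 13 genes listed for ILC3 and LTi cells, 10 were in the table. From EILP to ILCp 1 of them rose, the chemokine receptor gene Cxcr6, and none fell, with a median of 1.96 over the 10. Over all genes 1.76% were higher and 1.46% lower. At the step where Lta and Ltb rose, Cxcr6 went from −1.23 ± 3.93 to 9.51 ± 0.81 (difference 10.74 ± 2.17, adjusted p = 0.0141).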

How the data were processed

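Per the labels' protocols, RNA of 19 sorted bone marrow samples was converted with a SMARTer Ultra Low Input kit and a Nextera XT kit. The authors deposited 1 table of log2 CPM values. The submitters' processing notes name STAR 2.4.0h and mm10, besides bcl2fastq 1.8.4, limma and edgeR, without roles. The sources used here do not state how reads were counted or on which annotation. From the deposited log2 values, batch had been removed next to the groups (largest remaining coefficient 1.84e-08), and 2423 of 2426 genes with tied lowest values in all 5 batches had a common mean (tolerance 1e-05), which was taken as the zero level. No header or label records this. Depth is unknown, so no counting interval was computed.

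Groups came from the titles and batches from the labels. The test was that of limma 3.58.1 under R 4.3.3 (two-sided, moderated, with a mean-variance trend, groups and batch as fixed effects, 19 libraries, 12 residual degrees of freedom), with Benjamini-Hochberg adjustment over 18607 genes and a threshold of 0.05. The fit was tested on simulated data. Members, lists, neighbours, markers and alternatives were chosen with earlier results of these data known. Named genes were all members, from each list up to 3 others past the threshold per direction and comparison with the smallest p, adjacent genes, and the 3 genes most correlated with a member. Some results that these rules name are not reported here. Tnfrsf11a, the overlapping gene Gm16008 and single marker genes are outside this rule and were picked with their values in view. Positions came from the GENCODE annotation of GRCm38 and promoters from RefSeq. Alternatives were other model terms, library sets, scalings, filters and variance settings, with 2 library sets added after seeing the data.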

Additional observations from a re-analysis of the deposited data

Results flagged for a closer look

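In each of the 30 combinations of gene and group, the library farthest from its group was tested for its gap to the nearest other library (Dixon's test at 95%). Chance flags about 1 in 20 groups of normally distributed values, and 8 stood apart here. That rate does not hold where most libraries lie at the zero level, as for Lta in EILP (6 of 7) and Tnfrsf4 in ALP and EILP (6 of 7 each). In such groups a single library above zero, or a shift of the zero level between batches, can be enough for a flag. EILP 2 accounts for 3 of them: Ltb at −2.59 log2 CPM, where the nearest EILP library was at 2.74, Tnfsf8 at 5.34 (nearest −1.59) and Tnfrsf4 at 1.40 (nearest −3.51). It is also the library with the highest sum of myeloid markers, and the part of other cells in these levels was not tested. Lta was at −0.53 in EILP 6, the only EILP library above its zero level. Tnfsf11 was at 1.92 in EILP 7 (nearest −2.41). Tnfrsf4 was at −0.84 in ALP 1, the only ALP library above its zero level. The remaining pair are low values, read against zero levels that differ between batches: Tnf was at −5.05 in ALP 4, although this was the only ALP library above the zero level of its batch, and Tnfsf8 was at −4.61 in ILCp 2, which lay at the zero level like the other ILCp libraries.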

How the results depend on the processing

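Among the alternatives run, no called member changed direction. For EILP versus ALP the count of members past the threshold, 0, became 1 without a batch term and 1 without EILP 2 and ALP 7 together, and stayed 0 with each library left out (0 to 0). For ILCp versus EILP the count, 4, became 7 without a batch term, 1 with only the groups compared, 2 with only batches that hold both groups, 1 without the Plzf-cre-GFP libraries, 2 without the variance trend and 1 without batch 4, and ranged from 1 to 5 with each library left out. For ILCp versus ALP the count, 2, became 7 without a batch term, 4 with only the groups compared, 5 without EILP 2 and ALP 7 together and 1 without batch 4, and ranged from 2 to 5 with each library left out, the 5 being without EILP 2. A fit without a batch term counts 16 residual degrees of freedom on values already cleared of batch, against 12. The cause of the other shifts was not tested. Shares of all genes called under each of these alternatives are not given here. The shifts in the counts therefore cannot be read as particular to the members. Over all genes, median centring moved the median fold change to 0.22 for EILP versus ALP, to −0.17 for ILCp versus EILP (−0.08 as deposited) and to 0.09 for ILCp versus ALP (−0.03 as deposited). It turned the calls from 419 higher and 520 lower into 804 and 395 for EILP versus ALP, from 327 and 271 into 279 and 390 for ILCp versus EILP, and from 718 and 816 into 813 and 584 for ILCp versus ALP. The count for the reporter strains stayed at 0 in all alternatives run.

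Over 17 pairs of libraries with the same replicate number, deviations from the group means correlated between −0.640 and 0.116. Of these, 1 pair was above 0.1 and 1 was best with its own number. Because batch had been removed, deviations cancel out within each batch. Libraries of 1 batch, such as ALP 1, EILP 1 and ILCp 1, are thereby pushed towards negative correlations. These values therefore cannot decide whether replicate numbers pair the samples. With the replicate number as a block in place of batch, the count was 0 for EILP versus ALP, 7 for ILCp versus EILP and 4 for ILCp versus ALP. Shares of all genes are again not given beside these counts. Among the added calls, with this block, were Ltbr (−1.01, adjusted p = 0.0468), Tnfsf11 (7.57, adjusted p = 0.0245) and Tnfrsf1b (0.81, adjusted p = 0.0314) for ILCp versus EILP, and Ltb (4.52, adjusted p = 0.0321) and Tnfsf8 (adjusted p = 0.0317) for ILCp versus ALP. A test of only the genes in the upper part by mean leaves out the low members. Without counts, values near the zero level (Lta in ALP and EILP, Tnf, Tnfrsf4, Tnfsf8 in ILCp) cannot be told from transcripts missed for lack of reads, and no pseudocount was needed since the values are logs.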
